A study of Mus musculus with 12 samples.

Results

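The collagen genes and 8 genes of small leucine-rich proteoglycans were followed in whole spinal cord of wild type (WT) and P278KY mice. Members were the genes whose symbol is a collagen chain (Col, a number, a and a number) together with Ogn, Lum, Dcn, Bgn, Fmod, Omd, Aspn and Prelp, each with a mean of at least 0.1 transcripts per 1000000 (TPM) over the 12 mice. The rule kept 52 of the 38924 genes in the deposited tables, 44 collagen genes and 8 proteoglycan genes, and no candidate fell under the minimum. Nearest to the minimum were Col17a1 at a mean of 0.122 TPM and Col10a1 at 0.158 TPM. A filter on low counts left 50 members for testing and removed these same genes, Col10a1 and Col17a1.

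Whole spinal cord RNA was sequenced at 8 weeks of age from 6 WT mice and 6 mice heterozygous for the P278KY allele of Gars, which encodes glycyl-tRNA synthetase, the enzyme that charges tRNA with glycine. Each genotype had 3 females and 3 males, numbered as WT females 1, 2 and 10, WT males 5, 11 and 12, P278KY females 3, 4 and 9, and P278KY males 6, 7 and 8. All mice shared the strain background given as B6J;CAST. Each library came from a separate mouse, so the errors below are between mice, and the labels used here do not say which mice were littermates.

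Collagens form triple helices of 3 chains, and the fibrillar collagens are secreted as procollagen, trimmed outside the cell and then cross-linked. A glycine in each short repeat of the chain lets the helix pack. In spinal cord many collagens lie outside the neural tissue itself. These are in the fibrous meninges, the basement membrane around blood vessels and the sheaths of the spinal roots. Fibroblasts, endothelium, pericytes and Schwann cells make them there. Small leucine-rich proteoglycans such as decorin, lumican and osteoglycin bind collagen fibrils and set their diameter and spacing.

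The libraries held 26982140 to 39339999 expected counts each, and markers of cord neurons, astrocytes and oligodendrocytes were present in every library. Tissue from outside the cord differed between libraries. Lung markers summed to 1108 counts per 1000000 (CPM) in mouse 1 and to 48.7 to 93.2 CPM in the other 11 mice. The surfactant gene Sftpc was at 372 CPM in mouse 1 and at no more than 0.520 CPM elsewhere, and 3 of 12 lung markers were at 0 in 6 or more mice. Skeletal muscle markers summed to 12454 CPM in mouse 1, 4830 in mouse 3, 2823 in mouse 2, 1853 in mouse 4 and 123 to 400 CPM in the other 8 mice. Bone and cartilage markers were high in mice 1 and 2, where the osteoblast gene Bglap was at 13.03 and 13.08 CPM, against 0.173 to 3.85 CPM in the other mice. Sensory ganglion markers were high in mouse 7 (68.9 CPM summed), mouse 10 (32.8 CPM) and mouse 11 (25.5 CPM), against 2.50 to 10.98 CPM in the rest.

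Decorin and the chains of type I collagen were the most abundant members. On the length-scaled TPM scale, Dcn, which binds fibrils, was at 75.7 ± 19.3 TPM (SD, n = 12), Col1a2 at 65.5 ± 26.6 TPM and Col1a1 at 51.8 ± 28.4 TPM. Next came Col11a2, a fibrillar chain, at 46.4 ± 5.498 TPM, the fibril-associated Col16a1 at 41.6 ± 3.18 TPM and biglycan (Bgn) at 39.2 ± 13.1 TPM. Neighbours in this order lay within their spread of each other. By mean TPM, 21 members were at 10 TPM or more, 23 between 1 and 10 TPM, and 8 under 1 TPM. The coefficient of variation of TPM over the 12 mice was 7.63% for Col16a1 and 11.9% for Col11a2, while Col1a1 at a similar level had 54.9% and the sparse Col4a3 had 121%.

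Mouse 1 held the highest value of 31 of the 52 members, as the map of member levels by mouse shows. Its CPM lay above all 5 other WT mice for 32 members and below them for 4, with a median ratio to the other WT mice of 1.38. The largest ratios were 12.4 for Col10a1, a chain of hypertrophic cartilage (38 counts, against 2 to 7 in the other WT mice), 8.27 for Col4a3 and 6.02 for Col4a4. Col4a3 and Col4a4 encode chains of the basement membrane of kidney glomerulus and lung alveolus. Type I and type II chains were high in mouse 2 as well. Col1a1 was at 397 CPM in mouse 1 and 274 CPM in mouse 2, against 75.2 to 144 CPM in the other 10 mice. Col2a1, the main fibrillar chain of cartilage, was at 19.8 and 18.03 CPM in these mice and at 4.28 to 9.41 CPM in the others. Each of these rises stood in a library with more lung, muscle or bone RNA, and their part in the collagen values was not tested, so values without mouse 1 are given where leaving it out moved a change or a call.

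**Figure D1:**
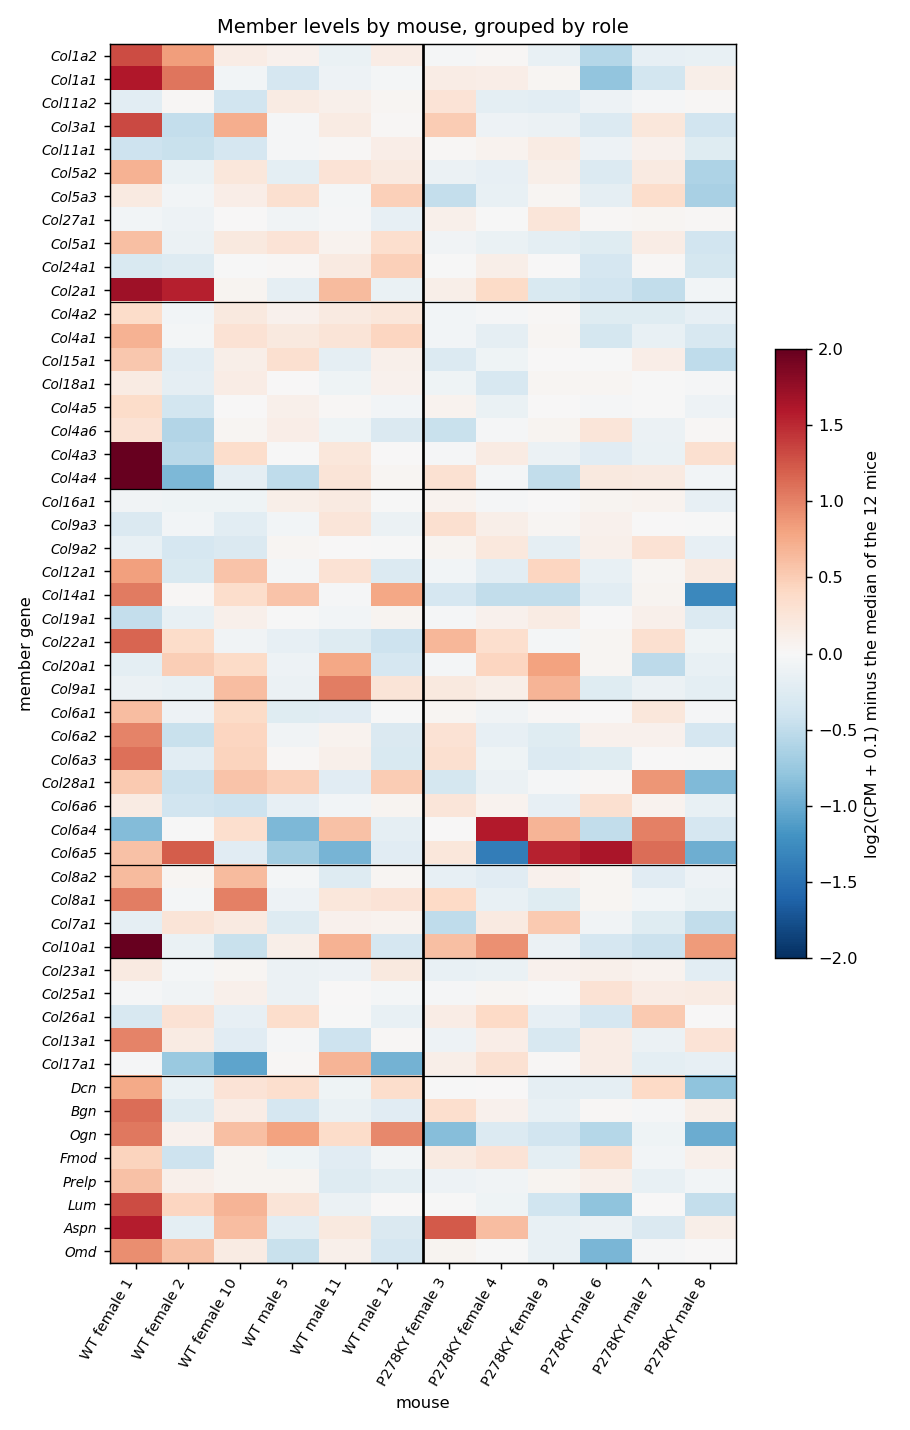
Level of each of the 52 members (rows, by role) in each of the 12 mice (columns, WT and P278KY), as log2(CPM + 0.1) minus the median of the 12 mice, from blue (below the median) to red (above). Mouse 1 is red in most rows and is the highest mouse for 31 members, and the Ogn row separates WT from P278KY mice.

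P278KY cord held less RNA of 4 members, and no member was called higher. Ogn, Lum, Col4a1 and Col4a2 passed an adjusted p of 0.05 in edgeR's quasi-likelihood test over 17980 genes, 4 of 50 tested members (8%). Over all genes 5.32% were called, 2.36% higher and 2.95% lower. Of the called genes 44.5% were higher on the counts and 84.6% in limma on log2(TPM + 1), where 1 member was higher (Col27a1) and 5 were lower. Only Ogn and Lum among the called members changed by 1.5-fold or more. The median log2 change of the tested members was -0.12, against -0.003 over all tested genes, with 36 members negative and 14 positive. Of all tested genes 9187 were negative and 8793 positive. Without mouse 1 the same 4 members were called, where 7.6% of all genes were called, 3.14% higher and 4.46% lower. The median of the members then lay at -0.04, with 30 members negative and 20 positive, and 8 members changed sign. In RNA from whole tissue, fewer cells of a type and less RNA per cell cannot be told apart.

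Osteoglycin (Ogn), a small leucine-rich proteoglycan of connective tissue that also coats collagen fibrils, showed the largest fall. It lies on mouse chromosome 13 (GRCm38, GENCODE M21, 49608046 to 49624501, plus strand), downstream of its relatives Omd, of mineralised tissue, and Aspn, of cartilage and tendon. The end of Omd lies 15223 bases before the start of Ogn, and Aspn ends 14896 bases before Omd starts. The 250 bases before the RefSeq start of each of these neighbours, build GRCm38.p6, plus strand, are shown because Ogn was called and its neighbours were not. Capitals mark matches to 3 promoter motifs, searched on both strands, which are the TATA box (written as TATAAA), the CAAT box (searched with its leading C, as CCAAT) and the GC box (searched in the form GGGCGG). The capital run before Ogn is an overlapping pair of TATA box matches on opposite strands. RefSeq windows were found for 41 of the 52 members.
Ogn, chr13:49607765-49608014: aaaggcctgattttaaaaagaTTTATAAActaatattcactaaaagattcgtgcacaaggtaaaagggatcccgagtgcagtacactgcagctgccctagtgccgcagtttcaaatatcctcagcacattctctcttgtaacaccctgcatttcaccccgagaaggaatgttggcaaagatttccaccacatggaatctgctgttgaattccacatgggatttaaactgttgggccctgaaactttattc
Omd, chr13:49582212-49582461: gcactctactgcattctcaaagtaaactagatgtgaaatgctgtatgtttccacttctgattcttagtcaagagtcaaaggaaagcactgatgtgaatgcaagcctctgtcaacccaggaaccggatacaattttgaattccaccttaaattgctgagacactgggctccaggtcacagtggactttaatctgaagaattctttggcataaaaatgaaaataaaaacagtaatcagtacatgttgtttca
Aspn, chr13:49544193-49544442: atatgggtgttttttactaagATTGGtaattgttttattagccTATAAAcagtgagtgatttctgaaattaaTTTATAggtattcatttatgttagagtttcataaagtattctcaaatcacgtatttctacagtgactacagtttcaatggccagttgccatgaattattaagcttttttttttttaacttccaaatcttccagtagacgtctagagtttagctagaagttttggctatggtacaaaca
Of 32851 windows of this length over all genes, 12.4% hold the first motif, 33.9% the second and 32.7% the GC box. Ogn and Aspn hold letters of the TATA box, which begin 227 and 229 bases before the start of Ogn and 178 and 207 before that of Aspn. Aspn also holds letters of the CAAT box, and none of the motifs is in the window of Omd. These are matches of letters, far from where a TATA box lies in a core promoter.

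Ogn was at 42.9, 66.3 and 83.7 CPM (lowest, median and highest) in the 6 WT mice and at 20.4, 29.1 and 38.1 CPM in the 6 P278KY mice. Every P278KY mouse lay below every WT mouse, in both sexes. Ogn was the only one of the 50 tested members whose genotypes did not overlap, and 2% of all tested genes lay wholly below WT in this way and 1.73% wholly above. The fall was 2.26-fold (log2 change -1.17, SE 0.21, adjusted p = 0.0116) and was -1.07 without mouse 1 (adjusted p = 0.0188). On the TPM scale it was at 50.3 ± 11.8 TPM in WT and 23.5 ± 5.84 TPM in P278KY (SD, n = 6 each). It remained past the threshold in all 12 fits that left out 1 mouse, at an adjusted p of up to 0.0366. The call was lost with several mice left out, at an adjusted p of 0.0668 without mice 1 to 4 and 0.0535 without mice 7, 10 and 11. Its log2 change in these fits was -1.17 and -1.37.

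Omd and Aspn were sparse and were not called. Omd was at 0.798 to 2.22 CPM in WT mice, and at 0.548 to 1.16 CPM in P278KY mice (log2 change -0.38, adjusted p = 0.392, and -0.25 without mouse 1). Aspn was at 1.85 to 6.91 CPM in WT, with the highest value in mouse 1, and 1.83 to 5.44 CPM in P278KY mice (log2 change -0.09, which turned to 0.18 without mouse 1). Both genotype ranges overlapped for these genes. The difference between their change and that of Ogn was not tested.

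Lumican (Lum), a fibril-binding proteoglycan of fibrous tissue on chromosome 10 beside Dcn, also fell. It was at 6.002, 8.26 and 16.1 CPM (lowest, median and highest) in WT and at 3.68, 5.503 and 6.49 CPM in P278KY mice. The groups overlapped, since WT mouse 11 lay below P278KY mice 3, 4 and 7, and the highest WT value was that of mouse 1. The fall was 1.67-fold (log2 change -0.74, SE 0.19, adjusted p = 0.0416) and -0.58 without mouse 1 (adjusted p = 0.0274). Lum was called in 4 of the 12 fits that left out 1 mouse, with the highest adjusted p, 0.0974, without mouse 6. Its adjusted p was also 0.0606 without the filter on low counts, 0.0778 with no sex term and 0.137 without mice 1 to 4.

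**Figure D2:**
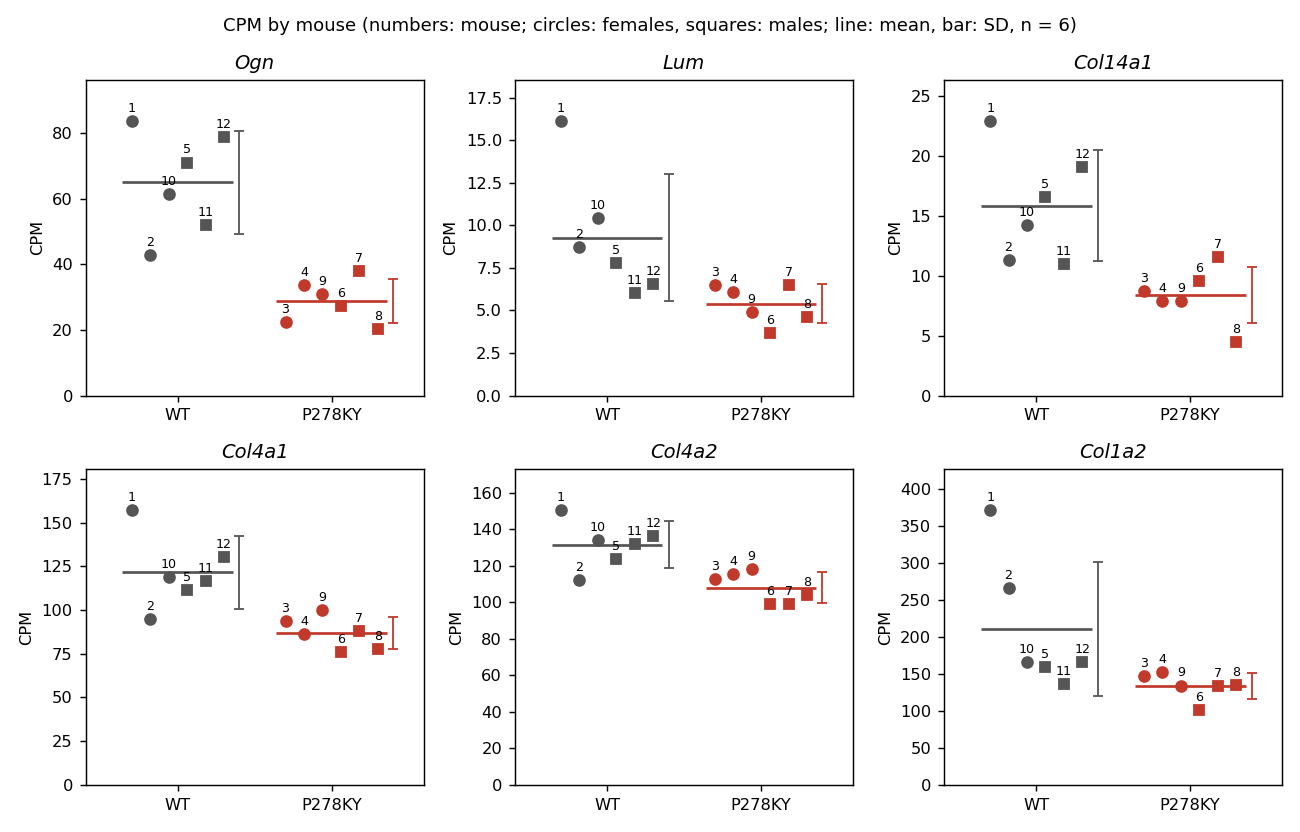
CPM in each mouse (1 point per mouse, 6 WT and 6 P278KY, line for the mean and bar for the SD) of the 4 called members and of Col14a1 and Col1a2, which were not called. For Ogn all P278KY points lie below all WT points, between 20.4 and 38.1 CPM against 42.9 to 83.7 CPM, while the groups overlap in the other panels.

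The remaining proteoglycans were not called, and each had its highest CPM in mouse 1. Dcn, the most abundant member, was at 58.1, 78.1 and 107 CPM (lowest, median and highest) in WT and at 36.2, 59.4 and 83.5 CPM in P278KY mice. Its ranges overlapped widely, with P278KY mouse 7 above all WT mice but mouse 1, and the log2 change was -0.36 (SE 0.21, adjusted p = 0.375), or -0.25 without mouse 1. Bgn was at 34.0, 37.6 and 93.2 CPM in WT mice, and at 38.7, 44.5 and 54.0 CPM in P278KY mice, where the highest WT value was again mouse 1. Its log2 change moved from -0.04 to 0.22 without that mouse (adjusted p = 0.948 and 0.195). Fmod, a relative of Lum, had a log2 change of 0.14, and 0.26 without mouse 1 (adjusted p = 0.198). Prelp, which anchors basement membrane to the matrix, had -0.11, and 0.002 without mouse 1. Of the 8 proteoglycan genes, 7 had a negative change with all mice and 4 without mouse 1.

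Of the 8 basement membrane chains, the pair of type IV chains found in almost every tissue fell. Col4a1 and Col4a2 form a shared heterotrimer and lie head to head on chromosome 8 (Col4a1 at 11198423 to 11312826, minus strand, and Col4a2 at 11312805 to 11449287, plus strand), where their annotated starts share 22 bases. Col4a1 was at 94.8, 118 and 157 CPM (lowest, median and highest) in WT and at 75.8, 87.1 and 99.8 CPM in P278KY mice. Its groups overlapped by a single library, WT mouse 2, which lay below P278KY mouse 9. The fall was 1.40-fold (log2 change -0.49, SE 0.11, adjusted p = 0.0261), and without mouse 1 it was -0.41 (adjusted p = 0.0257).

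Col4a2 was at 112, 133 and 150 CPM (lowest, median and highest) in WT and at 98.9, 108 and 118 CPM in P278KY mice. WT mouse 2 was again the WT mouse within the P278KY range. The fall was 1.22-fold (log2 change -0.29, SE 0.06, adjusted p = 0.0176), and without mouse 1 it was -0.25 (adjusted p = 0.0251). In the fits that left out 1 mouse, Col4a2 was lost without mouse 6 (adjusted p = 0.0527). Col4a1 was lost in 5 of the 12 (without mouse 4, 6, 8, 11 or 12), at an adjusted p of up to 0.0713, and with a term for mice 9 to 12 (0.0657). Neither was called without mice 7, 10 and 11 (log2 change -0.54, adjusted p = 0.1398 for Col4a1, and -0.27, adjusted p = 0.159 for Col4a2).

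The other chains of type IV collagen and the vessel wall chains Col15a1 and Col18a1 were not called. The ratio of Col4a1 to Col4a2 on the TPM scale was 0.822 to 1.02 in WT and 0.712 to 0.880 in P278KY mice, so the ranges overlapped. Col4a3 was at 1.46, 2.37 and 18.1 CPM (lowest, median and highest) in WT and at 1.84, 2.06 and 2.72 CPM in P278KY mice. Only mouse 1 lay above 2.79 CPM. Its log2 change was -0.94 (adjusted p = 0.433) with all mice and -0.03 without mouse 1. Col4a4, 71 bases from Col4a3 and head to head with it, moved in the same fits from -0.53 to 0.30.

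**Figure D3:**
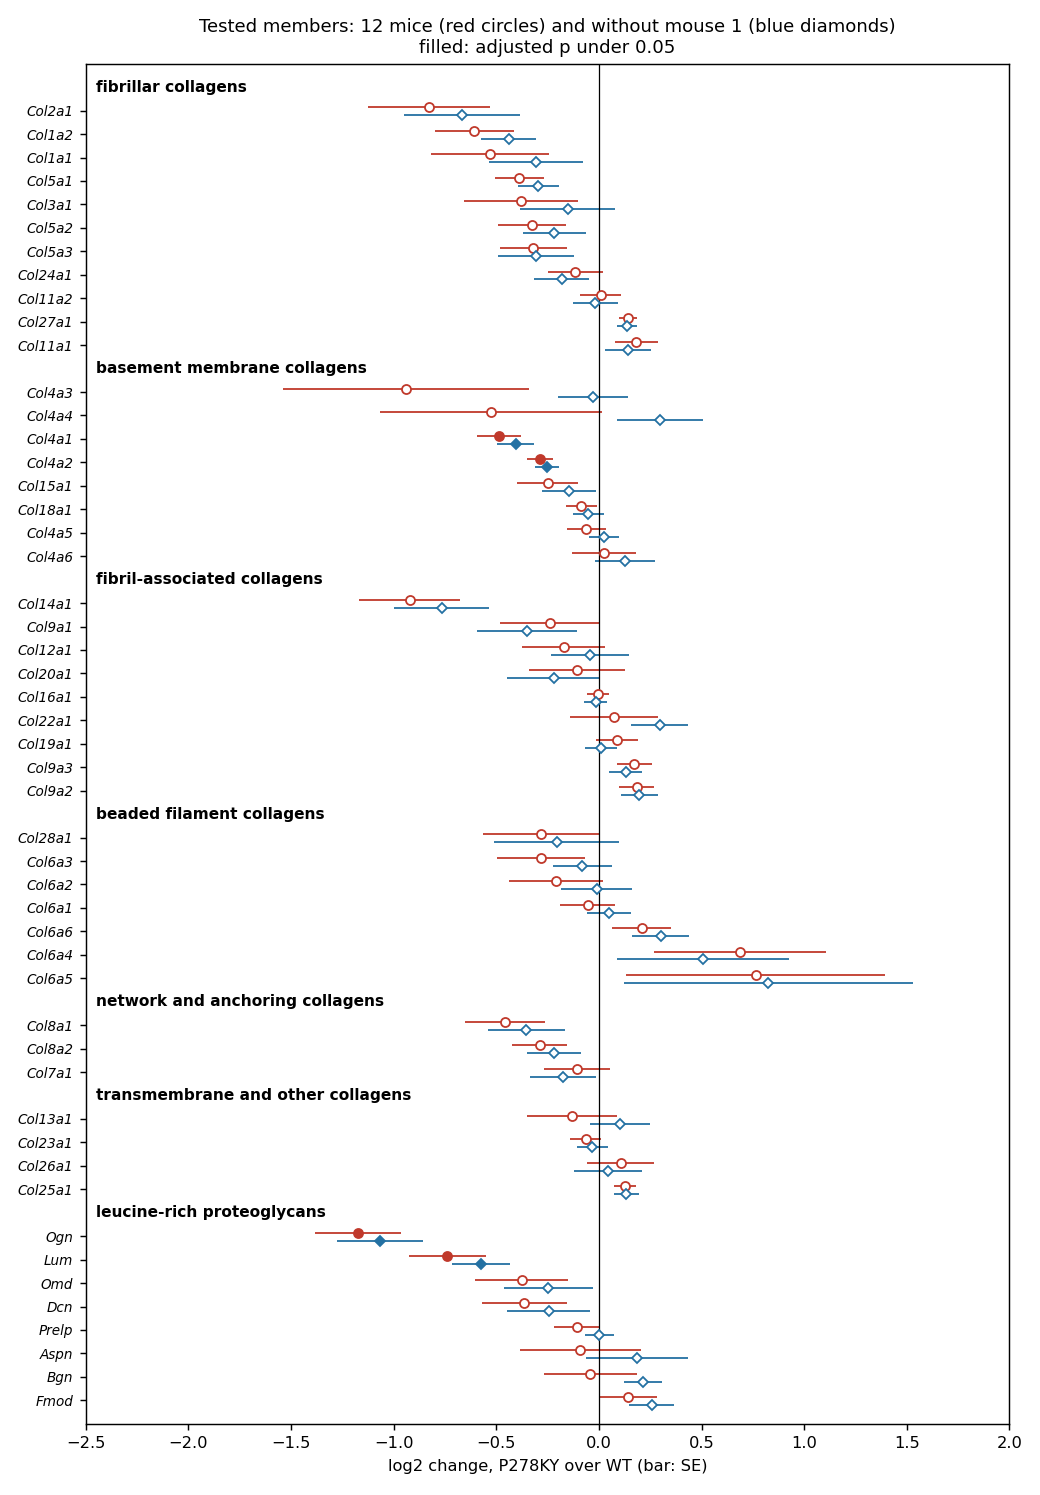
Log2 change of P278KY against WT with its SE for the 50 tested members, grouped by role, with all 12 mice (red circles) and without mouse 1 (blue diamonds), filled where the adjusted p was under 0.05. Only Ogn, Lum, Col4a1 and Col4a2 are filled in both, and Col4a3 and Col4a4 move most between the fits.

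None of the 11 fibrillar chains was called, though 8 of them had a negative change and 9 without mouse 1. Col1a2, which pairs with Col1a1 in type I collagen, was at 137, 166 and 371 CPM (lowest, median and highest) in WT and at 101, 135 and 152 CPM in P278KY mice. The highest WT values were in mice 1 and 2, and only WT mouse 11 lay within the range of the P278KY mice. Its log2 change was -0.61 (SE 0.19, adjusted p = 0.108) and -0.44 without mouse 1 (adjusted p = 0.0896). Col1a1 was at 103, 126 and 397 CPM in WT mice, and at 75.2, 138 and 144 CPM in P278KY mice, so that its median was higher in P278KY. Its log2 change was -0.53 (adjusted p = 0.349) and -0.31 without mouse 1. Col2a1 had a change of -0.83 (SE 0.30, adjusted p = 0.144), and -0.67 without mouse 1, with mice 1 and 2 far above the rest. Col5a1, a regulatory chain at the core of fibrils, had -0.39 (SE 0.12, adjusted p = 0.0896) and was called when mouse 2 was left out (adjusted p = 0.0339). Col27a1 had a log2 change of 0.14 (SE 0.05, adjusted p = 0.0910), and on the TPM scale it was called higher.

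Among the 9 fibril-associated chains, Col14a1 came closest to the threshold. Col14a1, which sits on fibrils of dense connective tissue, was at 10.98, 15.4 and 23.0 CPM (lowest, median and highest) in WT and at 4.51, 8.33 and 11.6 CPM in P278KY mice. The overlap was small, as P278KY mouse 7 lay above WT mice 2 and 11 only. Its log2 change was -0.92 (SE 0.25, adjusted p = 0.0578) and -0.77 without mouse 1 (adjusted p = 0.0808), and it was called with no sex term (adjusted p = 0.0453). Col16a1 was level, with a change of -0.01 (SE 0.05), and Col9a2, which binds type II fibrils, had 0.18 (SE 0.09, adjusted p = 0.254).

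The beaded filament, network and membrane-bound chains showed no called gene. Among members of these roles, the largest positive changes were in the sparse type VI chains Col6a5 (0.76, SE 0.63, adjusted p = 0.563), Col6a4 (0.69, SE 0.42, adjusted p = 0.3996) and Col6a6 (0.21, SE 0.15, adjusted p = 0.475). Col6a5 was at 0.512 to 2.61 CPM in WT mice, and at 0.349 to 3.51 CPM in P278KY mice, with no separation of the genotypes. Without mouse 1 these chains had 0.82, 0.51 and 0.30. Col6a1, an abundant chain of the same family, had -0.06, and 0.05 without mouse 1. The 3 tested network and anchoring chains (Col7a1, Col8a1 and Col8a2) had a median of -0.29, and the 4 membrane-bound and other chains had 0.02. Without mouse 1 the medians were -0.22 and 0.07.

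Within each sex few members were called, and the sexes were not shown to differ. In females, 1 of 50 members was called, where 0.573% of all genes were called and 0.189% were higher. It was Col11a1, a fibrillar chain of cartilage and of some neurons, at 65.2, 63.7 and 68.5 CPM in WT females 1, 2 and 10 and at 88.4, 90.6 and 97.1 CPM in P278KY females 3, 4 and 9. The female groups did not overlap (log2 change 0.48, SE 0.07, adjusted p = 0.0153). The share of all genes whose female groups lay apart in this way was not counted. Col11a1 was at 85.3, 87.8 and 94.5 CPM in WT males 5, 11 and 12 and at 81.1, 92.1 and 73.2 CPM in P278KY males 6, 7 and 8. The change in males was -0.12 (adjusted p = 0.522). WT females 1 and 2 were the libraries high in bone markers, and the female contrast was not fitted without mouse 1. In males, 1 of 50 members was called, where 1.55% of all genes were called, 0.517% higher and 1.03% lower. It was Col4a2, at 124, 132 and 136 CPM in WT males 5, 11 and 12 and at 99.1, 98.9 and 104 CPM in P278KY males 6, 7 and 8 (log2 change -0.38, SE 0.08, adjusted p = 0.0456). The same gene changed by -0.20 in females (adjusted p = 0.357).

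The interaction of genotype and sex was called for no gene of 17980 (0%) in edgeR's quasi-likelihood test, with 665 genes and 7 members at an unadjusted p under 0.05. Col11a1 had the smallest interaction p of the members (male minus female -0.60, SE 0.11, adjusted p = 0.132). Between males and females no member was called either, where 0.089% of all genes were called, 0.0389% higher and 0.0501% lower in males, and 7 members and 1609 genes were at an unadjusted p under 0.05.

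Genes that make, cross-link and take up collagen were compared next. Of 23 tested genes of collagen folding in the endoplasmic reticulum, 1 was called lower and none higher. Over all genes 2.95% were called lower and 2.36% higher. Without mouse 1 the counts were 2 and 1, where 4.46% of all genes were called lower and 3.14% higher. The gene called with all mice was P4hb, a subunit of prolyl 4-hydroxylase, at 158 ± 5.76 CPM in WT mice, and at 144 ± 2.96 CPM in P278KY (SD, n = 6; log2 change -0.14, adjusted p = 0.00619). Serpinh1, the collagen chaperone, had -0.40 (adjusted p = 0.0584, and 0.0138 without mouse 1). P4ha1, the catalytic subunit of prolyl 4-hydroxylase, had -0.26 (adjusted p = 0.0817) and the prolyl 3-hydroxylase gene Leprel2 had 0.14 (adjusted p = 0.0834).

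Of 15 tested genes of propeptide removal and cross-linking, 1 was called higher and 2 lower, where 2.36% and 2.95% of all genes were. Lox, the lysyl oxidase that cross-links collagen and elastin, was at 14.3 ± 2.15 CPM in WT mice, and at 5.44 ± 0.991 CPM in P278KY mice (SD, n = 6; log2 change -1.40, SE 0.12, adjusted p = 3.57e-05). Every P278KY mouse lay below every WT mouse for Lox. Its relative Loxl4 fell by 0.80 on the log2 scale (adjusted p = 0.0243). Bmp1, which trims procollagen, rose by 0.15 (adjusted p = 0.0280), and Tll1 of the same family had -0.47 (adjusted p = 0.0716).

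Of 14 tested genes of collagen breakdown, 2 were called lower and none higher, where 2.95% and 2.36% of all genes were. Mmp15, a membrane-bound metalloproteinase, fell by 0.35 on the log2 scale (adjusted p = 0.00831), and the lysosomal protease Ctsk fell by 0.54 (adjusted p = 0.0437, and 0.0574 without mouse 1). Mmp8, a neutrophil collagenase, had 0.69 (adjusted p = 0.0744, and 0.0225 without mouse 1), and Mmp9 had -0.33 (adjusted p = 0.137).

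None of 10 collagen receptors, 15 basement membrane partners and 18 genes of transforming growth factor beta signalling was called, with medians of -0.08, -0.22 and -0.07. Without mouse 1 these medians were 0.004, -0.09 and 0.01. Among receptors, Gpr56 had 0.14 (adjusted p = 0.0668), the integrin chain Itgb1 had -0.19 (adjusted p = 0.0831) and Ddr2, which binds fibrillar collagen, had 0.38 (adjusted p = 0.193). Without mouse 1, Itgb1 was called lower (-0.13, adjusted p = 0.0213) and Ddr2 higher (0.52, adjusted p = 0.0172). Among the partners, perlecan (Hspg2) had -0.39 (adjusted p = 0.232), and the laminin chain Lamc3 had -0.21 (adjusted p = 0.0788). Eng, a co-receptor of vessels, had -0.32 (adjusted p = 0.149), and -0.20 without mouse 1.

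Markers of the cells that could carry the called members were read in the same libraries. Of 13 tested Schwann cell markers 5 were called lower, and 4 without mouse 1, where 2.95% and 4.46% of all genes were. The Schwann cell markers summed to 371 to 608 CPM in WT mice, and to 184 to 457 CPM in P278KY mice, and none was at 0 in 6 or more mice. Among P278KY mice, mouse 7 was highest (457 CPM, Ogn 38.1 CPM) and mouse 8 lowest (184 CPM, Ogn 20.4 CPM) for both, and WT mice 1, 5 and 12 were the highest of WT for both. Between the genotypes the order differed for mouse 7, which also had the highest sensory ganglion sum (68.9 CPM). P278KY mouse 7 had a higher Schwann cell sum than WT mice 2, 10 and 11 (390, 455 and 371 CPM). Its Ogn was lower than theirs (42.9, 61.6 and 51.9 CPM). Meningeal fibroblast markers summed to 603 to 1161 CPM in WT mice, and to 768 to 1128 CPM in P278KY, and none of 23 was called. Mouse 1 set the top of that WT range. Without it 2 markers were called higher (Fbln1 and Slc6a20a), where 3.14% of all genes were. The median log2 change was then 0.05 in place of -0.07. Gjb6 of this list is also in the astrocyte list, so the sum is not of fibroblasts alone. How much of it came from other cells of the cord, through Gjb6 or other genes of the list, was not tested. Endothelial markers summed to 438 to 647 CPM in WT, with mouse 1 highest, and to 448 to 498 CPM in P278KY. None of 15 was called, and 14 of them had a negative change, with a median of -0.19, or -0.05 without mouse 1. Of 12 pericyte and smooth muscle genes none was called. Bone and cartilage markers summed to 60.3 to 96.6 CPM in WT mice, and to 43.8 to 59.8 CPM in P278KY mice. Of 14 tested, 2 were called lower (Dmp1 and Acan, of which Acan is also made by neurons), where 2.95% of all genes were. The part of these cell types in the members' changes was not tested.

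**Figure D4:**
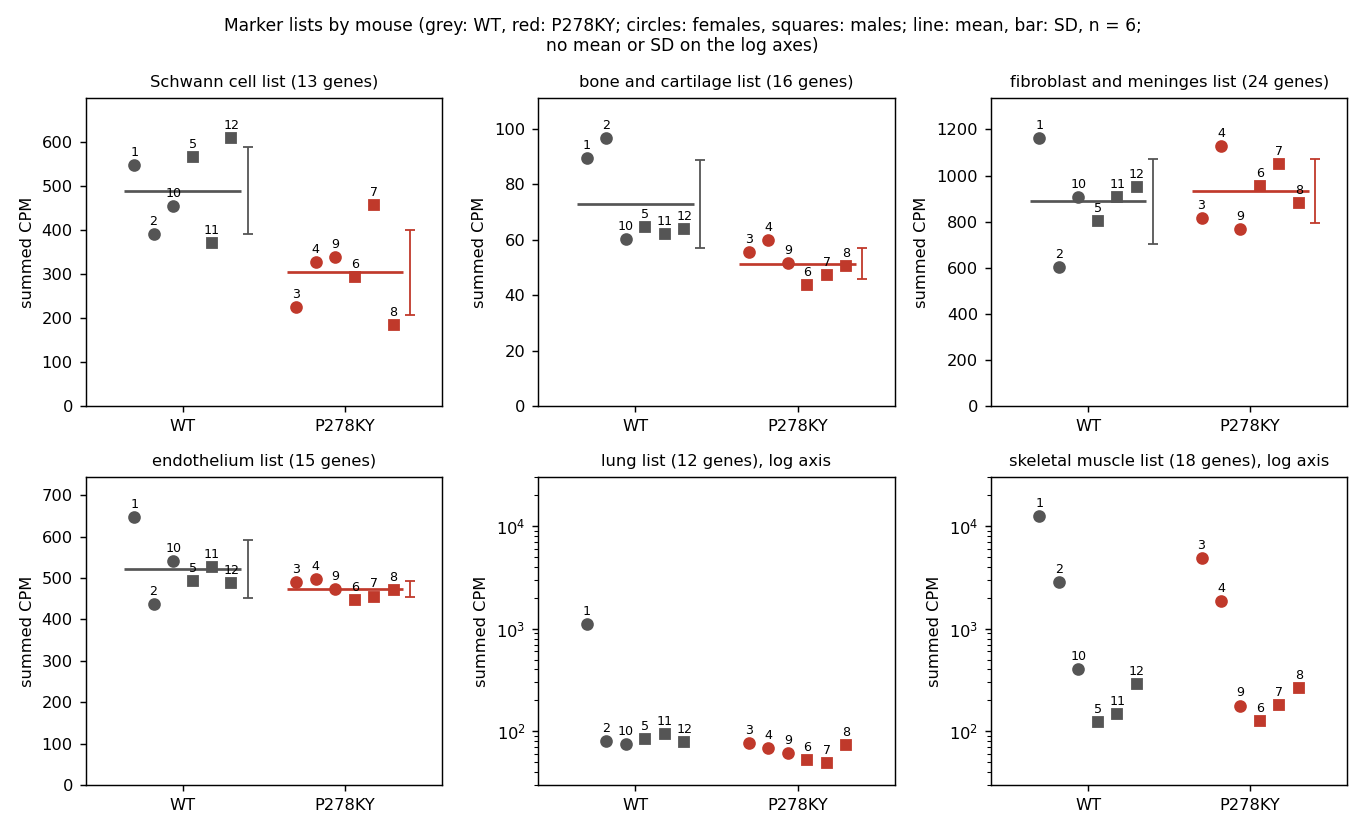
Summed CPM of 6 marker lists in each mouse (1 point per mouse, WT and P278KY, line for the mean and bar for the SD; the lung and muscle panels have log axes and no mean or SD). Schwann cell markers lie at 371 to 608 CPM in WT mice, and at 184 to 457 CPM in P278KY mice, and lung markers stand out in mouse 1 at 1108 CPM.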

How the data were processed

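RNA-seq of whole spinal cord from 12 mice was used, 3 per genotype and sex. The authors' tools were Bowtie2 2.2.0 and RSEM 1.2.12, per the submitters' processing notes. Genome build and annotation: not given in the sources used here. What the authors deposited is 1 table per mouse, with expected counts (estimated reads per gene, with ambiguous reads divided among the genes they match) and TPM (scaled for transcript length and library), as named in the file headers.

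Expected counts were rounded. Filtering with edgeR's filterByExpr (4 groups) left 17980 genes, and TMM factors were applied to the library totals. CPM is the count per 1000000 counts of the scaled library of tested genes. Genotype was tested with edgeR's robust quasi-likelihood F test in a model of sex and genotype, with Benjamini-Hochberg adjustment over all tested genes and a threshold of 0.05. Within-sex effects and the interaction came from a model of 4 group means. The SE was taken as the size of the log2 change divided by the square root of F. The software was edgeR 4.0.16 with DESeq2 1.42.0 and limma 3.58.1 as alternatives, in R 4.3.3, tested on simulated data. Replicate libraries differed by more than sampling noise (chi-square per degree of freedom 11.1 to 63.6), so none was counted as a repeat.

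Members, lists and alternatives were chosen with earlier results of these data known. Named were members past a threshold for genotype, with all mice or without mouse 1, within a sex, for the interaction or for sex. Also named were the 6 members with the highest mean TPM, the 5 largest rises and falls, those nearest the TPM minimum, and up to 4 genes per pathway list by p. Others named were chosen after their values were seen. Alternatives were other normalizations, tests and filters, TPM values, left-out mice, no sex term and a term for mice 9 to 12. A Schwann cell marker is not reported here and was left out of that list's counts and sums. Positions came from GENCODE M21 (GRCm38), matched by gene ID for all 52 members, and promoter windows from RefSeq (GRCm38.p6).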

Additional observations from a re-analysis of the deposited data

Results flagged for a closer look

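Samples far from the other 5 of their genotype were sought for each member, over 104 groups of 6 mice, where chance alone gives about 1 in 20. In WT, mouse 1 stood far above the others for 8 members, at 6.91 CPM for Aspn, 93.2 for Bgn, 1.26 for Col10a1, 5.56 for Col13a1, 11.8 for Col22a1, 18.1 for Col4a3, 9.13 for Col4a4 and 47.6 for Prelp. The next WT mouse was at 3.53 CPM for Aspn, 47.4 for Bgn and 2.79 for Col4a3. Mouse 1 is the library with the most lung and muscle RNA, and the part of that RNA in these values was not tested.

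In P278KY, mouse 3 stood above the others for Col9a3 (34.6 CPM, next 29.9) and mouse 6 below them for Omd (0.548 CPM, next 0.997). Mouse 7, which held the most sensory ganglion RNA, stood above the others for Col28a1 (4.85 CPM, next 2.61) and Col6a1 (45.5 CPM, next 40.0). Flags of this kind also arise by chance at the rate given above, and the part of ganglion RNA in these values was not tested.

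Col24a1, a fibrillar chain, had a genotype change of 0.23 on the log2 scale in females and -0.45 in males. In females the lowest P278KY value (13.579 CPM, mouse 3) was just above the highest WT value (13.499 CPM, mouse 10), and in males the highest P278KY value (13.855 CPM, mouse 7) was just below the lowest WT value (13.907 CPM, mouse 5). The share of all genes whose groups lay apart in opposite directions in the sexes was not counted. The interaction had an unadjusted p of 0.00333 in edgeR's quasi-likelihood test and did not pass adjustment (adjusted p = 0.640).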

How the results depend on the processing

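The members called lower numbered 4 with all mice, 8 with the Wald test of DESeq2 (Col14a1, Col1a2, Col2a1 and Col5a1 added), 2 without mice 1 to 4, 1 without mice 7, 10 and 11, and 1 to 5 with 1 mouse left out. On log2(TPM + 1) and log2(TPM + 0.1) values 1 member, Col27a1, was called higher. Over all genes 425 were higher and 531 lower, and the counts were 717 and 900 with the Wald test, 641 and 826 with voom, 1358 and 248 on log2(TPM + 1), 1374 and 248 on log2(TPM + 0.1), and 87 and 166 without mice 7, 10 and 11. Without mice 1 to 4, 201 were higher and 356 lower. With 1 mouse left out they were 230 to 572 and 312 to 813. With a term for mice 9 to 12, Col1a2 was called and Col4a1 was not. With no sex term, Col14a1 was called and Lum was not. The cause of these moves was not tested, beyond the fewer mice in fits that leave some out. No called member reversed its direction in the alternatives run.

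No paired analysis was possible because mouse numbers are not shared between the groups. Expected counts of Col10a1 (2 to 38) and Col17a1 (2 to 12) were too low for a test, and the sparse type VI chains are imprecise. The amount of root, meninges and other tissue taken with each cord is not given in the labels.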
